A study of Homo sapiens with 12 samples.

Results

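The genes examined here carry peptides to the cell surface on MHC class I molecules and make those peptides: the heavy chain genes HLA-B, HLA-C and HLA-E, the light chain gene B2M, both subunits of the peptide transporter (TAP1 and TAP2) and the inducible proteasome subunits PSMB8, PSMB9 and PSMB10. They were chosen by gene symbol, and all 9 were found among the 32287 genes listed in at least one deposited table. When IGF2BP3 was knocked down in MOLM13 cells, HLA-B, HLA-E, B2M and TAP1 rose with both hairpins, by a log2 fold change between 0.70 and 1.81. Hairpin 1 also raised PSMB9, whereas hairpin 2 lowered PSMB8. In U937 cells whose IGF2BP3 protein was targeted for degradation, TAP1 and PSMB8 fell and HLA-E rose at 6 h, and HLA-B, HLA-E, PSMB8 and PSMB10 rose at 24 h.

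RNA was sequenced in 12 libraries from 2 human acute myeloid leukemia lines, with 6 groups and 2 libraries in each. MOLM13 is a leukemia line of monocyte-like character, and its cells were infected with lentiviruses that encode shNS, the control hairpin, or either of 2 hairpins directed at the RNA-binding protein IGF2BP3, namely shBP3-1 (hairpin 1) and shBP3-2 (hairpin 2). The U937 cells, also monocyte-like, express IGF2BP3 with an auxin-inducible degron tag (BP3-mAID) that lets the ligand 5-Ph-IAA trigger breakdown of the protein, and they were left untreated (NT) or given the ligand for 6 h or 24 h. All U937 groups, the untreated one included, carry the tag, and whether the tagged line is a single clone is not given in the sources used here. The labels name total RNA for MOLM13 and mRNA for U937, although the protocol text for all libraries describes bead capture of mRNA. Nothing states that the libraries of a group came from separate cultures, so the p-values measure only the spread between these libraries, which may be technical.

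As background, nearly every nucleated cell displays short peptides from its own proteins on MHC class I molecules, where cytotoxic T cells inspect them. The proteasome cuts proteins into peptides, the TAP transporter pumps these into the endoplasmic reticulum, and chaperones load them onto a heavy chain paired with beta-2-microglobulin. Interferons raise these genes through the STAT and IRF factors, the inducible subunits then replace the standard catalytic ones in newly assembled proteasomes, and the transactivator NLRC5 acts at class I promoters. Low class I display can hide leukemia cells from T cells, while a lack of HLA-E or of classical class I can expose cells to natural killer (NK) cells.

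The promoters are shown first as a description of the genes, and a link between their motifs and the changes was not tested. RefSeq (GRCh38.p14) promoter windows, 250 bases before to 50 bases after a start site, were matched by symbol for 8 of the 9 genes (not HLA-E), with 2 windows each for TAP1 and PSMB8. Searched on both strands were the core of the interferon-stimulated response element (GAAANNGAAA), the gamma-activated site core (TTCNNNGAA), the Y box (CCAAT) and the half-site of the cyclic AMP response element (TGACG). The windows below belong to 3 genes that rose with both hairpins and to HLA-C, a close paralog of HLA-B. Those of TAP2, PSMB8, PSMB9 and PSMB10 are not printed. Capitals mark the response element core and the Y box, read 5′ to 3′ on the strand of the gene.
HLA-B (chr6:31357130-31357429, minus strand): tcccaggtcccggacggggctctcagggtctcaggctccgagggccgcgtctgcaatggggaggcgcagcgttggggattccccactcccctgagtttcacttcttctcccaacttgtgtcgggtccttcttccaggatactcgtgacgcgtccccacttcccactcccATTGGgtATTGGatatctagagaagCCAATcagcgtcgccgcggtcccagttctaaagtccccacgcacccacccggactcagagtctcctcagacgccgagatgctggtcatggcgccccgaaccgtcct
HLA-C (chr6:31272043-31272342, minus strand): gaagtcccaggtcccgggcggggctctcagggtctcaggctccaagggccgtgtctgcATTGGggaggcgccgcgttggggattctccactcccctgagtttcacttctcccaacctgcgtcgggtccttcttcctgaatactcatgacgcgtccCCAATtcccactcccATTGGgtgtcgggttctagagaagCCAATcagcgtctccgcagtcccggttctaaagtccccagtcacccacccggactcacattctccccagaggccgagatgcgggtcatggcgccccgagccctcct
B2M (chr15:44711267-44711566, plus strand): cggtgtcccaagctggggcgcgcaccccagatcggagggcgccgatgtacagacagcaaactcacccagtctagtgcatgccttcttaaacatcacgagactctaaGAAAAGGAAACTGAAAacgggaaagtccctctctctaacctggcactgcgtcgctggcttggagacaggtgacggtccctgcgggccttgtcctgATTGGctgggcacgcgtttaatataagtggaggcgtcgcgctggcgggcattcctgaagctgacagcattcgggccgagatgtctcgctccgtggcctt
TAP1 (chr6:32853655-32853954, minus strand): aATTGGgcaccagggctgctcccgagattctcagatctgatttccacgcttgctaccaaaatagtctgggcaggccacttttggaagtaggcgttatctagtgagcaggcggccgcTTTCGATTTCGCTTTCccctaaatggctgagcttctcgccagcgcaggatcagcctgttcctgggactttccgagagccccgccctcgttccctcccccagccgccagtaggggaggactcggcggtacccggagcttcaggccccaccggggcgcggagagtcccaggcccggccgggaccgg
The response element core occurred in at least 1 window of 5 of the 8 genes (B2M, TAP1, TAP2, PSMB8 and PSMB10), against 3.57% of all 35116 RefSeq windows. Of these 5, only B2M and TAP1 rose with both hairpins. PSMB8 fell with hairpin 2, and TAP2 and PSMB10 were not called with either hairpin. HLA-B rose with both hairpins and its window held no match. For every motif the share is per window while the count is per gene, which favours the genes with 2 windows. In the B2M window 2 overlapping matches began at -144 and -138 from the start site, and in the TAP1 window 2 overlapping matches began at -134 and -128. The HLA-B, HLA-C and PSMB9 windows held no exact match to the response element core. The pattern allows no change at its fixed bases, so elements that depart from it were not counted. The TAP1 matches lie between the neighbouring TAP1 and PSMB9 genes, outside the PSMB9 window. The Y box occurred in 5 of the 8 genes (34.6% of all windows), 3 times in HLA-B and 4 times in HLA-C. The half-site TGACG occurred in 6 of 8 (24.6% of all windows) and the gamma-activated site core in 2 of 8 (7.66%). The HLA-B and HLA-C windows were identical in 269 of 304 aligned columns (88.5%). A match describes letters only and is not evidence of binding, and a missing match is not evidence that an element is absent.

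Whole reads per library were recovered from the deposited means for all 9 genes and for IGF2BP3, each with a single solution that fits both tables of a line. The libraries are named here by depth (deeper or shallower), since their replicate numbers cannot be read from the tables. From the size factors, the MOLM13 libraries held an estimated 21962371 to 23522766 reads in listed genes and the U937 libraries 9961869 to 15593010. In the hairpin 1 table IGF2BP3, the knockdown target, stood at 1920.1 and 1923 normalised reads with shNS and at 723 and 814 with the hairpin. On the scale of the hairpin 2 table it stood at 1873.7 and 1885 with shNS and at 912 and 924 with the hairpin. It fell by 1.32 and 1.03 on the log2 scale in the authors' deposited table. In U937 the degron acts on the protein, so its transcript checks nothing there, and it was not called at either time. All 9 myeloid markers listed for this check had a mean of at least 10 normalised reads in MOLM13 and 6 of 9 did in U937 (not MPO, CD14 or FLT3), while the T cell genes CD3E and CD3G and the B cell gene MS4A1 were not listed in any table. Of the markers of other cell types, the T cell gene TRAC, the B cell gene PAX5 and the NK cell genes NCAM1 and NKG7 had a mean of at least 10 normalised reads in all 4 tables, and CD79A, KRT8 and COL1A1 did in some.

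Levels of the genes within a line were compared as normalised reads per kilobase of the longest coding transcript in GENCODE 29. In shNS cells the mean level per kilobase ran from B2M (5073) through HLA-B (1611), PSMB8 (1168), HLA-E (850.0), PSMB9 (328), PSMB10 (219), TAP1 (134) and HLA-C (106) down to TAP2 (8.52). Neighbours in this order did not overlap between libraries, except HLA-C, whose 2 libraries spanned TAP1. In untreated U937 cells (on the scale of the 6 h table) the level per kilobase ran from B2M (6879.7) through HLA-C (869), PSMB8 (733), HLA-E (365), HLA-B (314), PSMB9 (180.1), TAP1 (159) and PSMB10 (47.6) to TAP2 (2.21), with no overlap between neighbours. B2M was the highest and TAP2 the lowest in both lines, while HLA-B and HLA-C stood in opposite order. The tables were normalised separately, so levels are not compared across lines, and HLA alleles of the lines that differ from the reference genome can lower the count of a class I gene by an amount that was not examined.

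**Figure D1:**
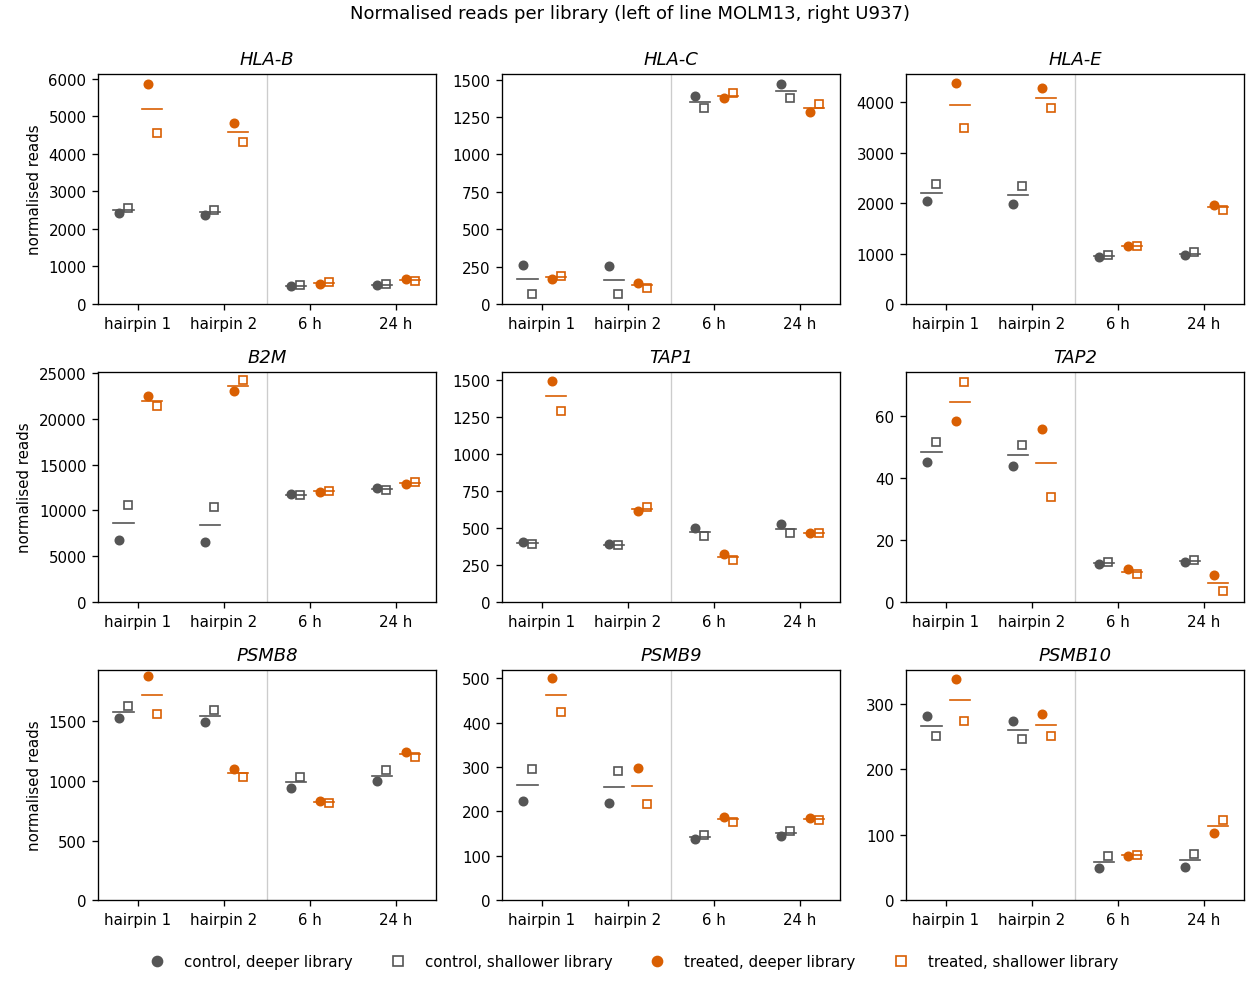
Normalised reads per library (vertical axis, linear, from 0) for the 9 genes in the 4 comparisons (horizontal axis), with control libraries in grey, treated libraries in orange and short lines at group means. B2M and HLA-B libraries of both hairpins lie above both shNS libraries, and the 2 shNS libraries stand far apart for HLA-C and B2M.

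Hairpin 1 raised 5 of the 9 genes and lowered none at an adjusted p under 0.05 in the authors' deposited table, where 33.7% of all tested genes were called (17.7% higher and 16.0% lower). Hairpin 2 raised 4 and lowered 1, where 41.5% of all genes were called (19.4% higher and 22.1% lower). At 6 h of 5-Ph-IAA 1 rose and 2 fell of 8 tested, where 23.2% of all genes were called (10.9% higher and 12.3% lower). At 24 h 4 rose and none fell of 9, where 38.8% of all genes were called (18.9% higher and 19.9% lower). Of the tested members 55.6%, 55.6%, 37.5% and 44.4% were called in these comparisons, and with so few members a share close to the background is no result about the set. The members tested had median log2 fold changes of, in the same order, 0.83, 0.04, 0.12 and 0.23, against -0.01, 0.02, 0.01 and 0.01 over all tested genes. In bulk RNA, fewer cells of a type and less RNA per cell cannot be told apart, and the same holds for a gain. Both comparisons of a line share the 2 control libraries.

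**Figure D2:**
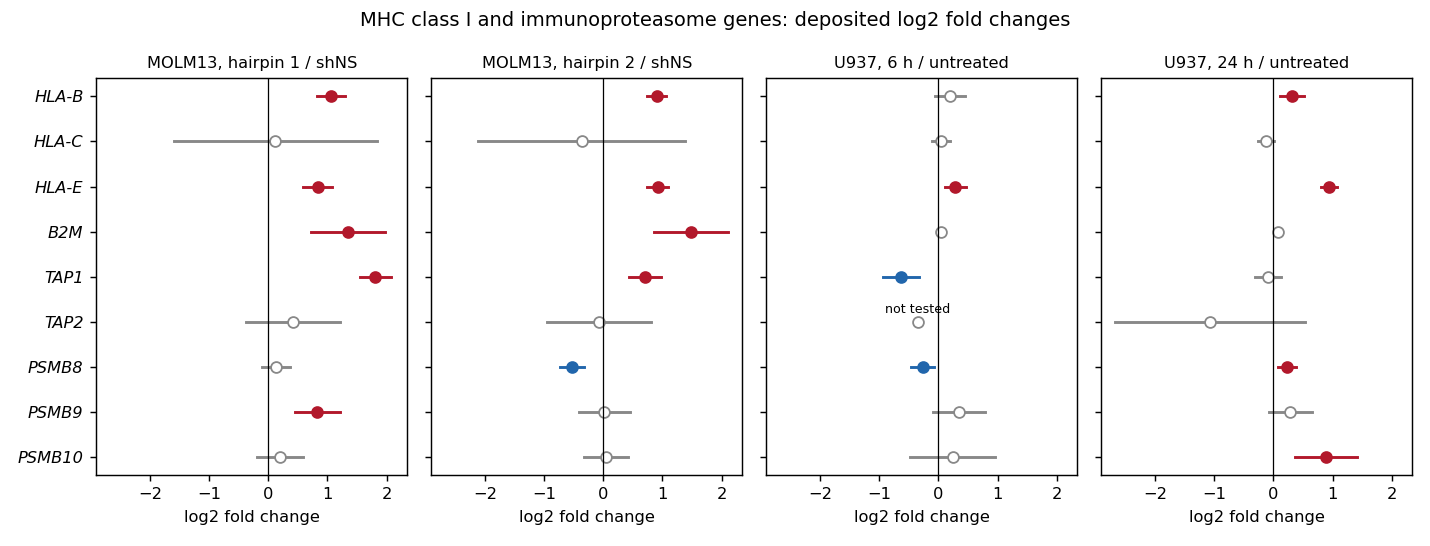
Log2 fold changes of the 9 genes as deposited (horizontal axis) in the 4 comparisons, with 95% intervals worked out from the adjusted p. Filled red points rose, filled blue points fell and open grey points were not called. TAP1 stands at 1.81 with hairpin 1 and at -0.63 at 6 h.

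HLA-B (ENSG00000234745.13, chr6:31353875-31357179, RefSeq GRCh38.p14 as for all coordinates here) encodes a classical heavy chain that presents peptides to T cells. In the hairpin 1 table it stood at 2430.5 and 2555 normalised reads in the shNS libraries and at 5861 and 4546 with the hairpin. In the hairpin 2 table the control libraries stood at 2372 and 2505 and the hairpin libraries at 4827 and 4311. Every hairpin library lay above both controls, and HLA-B rose by 1.06 (95% interval 0.83 to 1.29, adjusted p = 5.75e-18) with hairpin 1 and by 0.91 (95% interval 0.74 to 1.07, adjusted p = 4.8e-27) with hairpin 2 on the log2 scale in the authors' deposited table. In U937, untreated libraries held 475 and 496 normalised reads against 529 and 584 after 6 h, and 501 and 521 against 661 and 605 after 24 h on the scale of the 24 h table. The treated libraries were the higher ones at both times, but only the 24 h change of 0.31 (95% interval 0.11 to 0.51, adjusted p = 0.00829) passed the test in the authors' deposited table, while 6 h gave 0.20 (95% interval -0.06 to 0.45, adjusted p = 0.303).

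HLA-C (ENSG00000204525.18, chr6:31268749-31272092), another classical heavy chain, binds peptides for T cells and is the main ligand of killer immunoglobulin-like receptors on NK cells. The 2 shNS libraries disagreed about it: the deeper held 258 reads and the shallower 68, or 259 and 68.9 normalised reads, against 169.6 and 187 with hairpin 1. With hairpin 2 the values were 140.2 and 108, against 253 and 67.55 with shNS on the scale of that table, so that both treated groups lay between the 2 controls. Its log2 fold changes were 0.12 (95% interval -1.60 to 1.84, adjusted p = 0.94) with hairpin 1 and -0.37 (95% interval -2.11 to 1.38, adjusted p = 0.803) with hairpin 2 in the authors' deposited table, intervals wide enough to hold a large change in either direction. Leaving out the deeper control library moved these to 1.37 and 0.88, and leaving out the shallower one to -0.54 and -1.03, so 1 library decides the sign. Among the 50-base stretches of their longest coding transcripts, 2.54% of HLA-B, 6.71% of HLA-C and 5.13% of HLA-E also occur in other genes, so that reads there may be split or uncounted. In U937 the HLA-C replicates lay close together, at 1393 and 1308 untreated and 1377 and 1408 at 6 h, and at 1468 and 1376 untreated and 1280.2 and 1335 at 24 h. The groups overlapped at 6 h and the treated libraries lay below at 24 h, with 0.04 (95% interval -0.11 to 0.20, adjusted p = 0.773) and -0.12 (95% interval -0.26 to 0.01, adjusted p = 0.149) in the authors' deposited table.

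HLA-E (ENSG00000204592.9, chr6:30489509-30494194) is a non-classical heavy chain that presents leader peptides of other class I chains to the inhibitory receptor CD94/NKG2A on NK cells. It stood at 2043 and 2379 normalised reads with shNS and at 4393 and 3493 with hairpin 1, and on the scale of the hairpin 2 table at 1993 and 2332 against 4284 and 3898. All 4 hairpin libraries were above both controls. The rise was 0.83 (95% interval 0.60 to 1.07, adjusted p = 1.3e-10) with hairpin 1 and 0.92 (95% interval 0.74 to 1.10, adjusted p = 1.12e-22) with hairpin 2 in the authors' deposited table. In U937 it went from 924 and 972 untreated to 1155 and 1152 at 6 h, and from 975 and 1022 to 1957 and 1874 at 24 h. Treated libraries lay above the untreated ones at both times, and HLA-E was called in all 4 comparisons, with a rise of 0.28 (95% interval 0.11 to 0.46, adjusted p = 0.00944) at 6 h and of 0.94 (95% interval 0.81 to 1.07, adjusted p = 1.18e-42) at 24 h in the authors' deposited table.

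B2M (ENSG00000166710.22, chr15:44711517-44718145) encodes beta-2-microglobulin, the light chain that every class I heavy chain needs to reach the surface. The shNS libraries stood at 6753 and 10545 normalised reads in the hairpin 1 table, and the hairpin 1 libraries at 22509 and 21422. The hairpin 2 libraries stood at 22999 and 24246 against 6589.9 and 10338. Each hairpin library was above both controls. B2M rose by 1.34 (95% interval 0.72 to 1.97, adjusted p = 0.000146) with hairpin 1 and by 1.48 (95% interval 0.85 to 2.11, adjusted p = 1.82e-05) with hairpin 2 on the log2 scale in the authors' deposited table. The shNS libraries differed 1.56-fold for B2M, and its implied standard error of 0.32 was larger than that of 99.8% of genes with a mean of at least 1000 normalised reads, whose median was 0.11 with hairpin 1 and 0.09 with hairpin 2. Without the deeper shNS library the log2 ratio was 1.06 with hairpin 1 and 1.19 with hairpin 2, and without the shallower one 1.70 and 1.84. In U937 B2M was close to level in all libraries, with 11821 and 11639 untreated and 12062 and 12089 at 6 h, and, normalised with the 24 h libraries, 12463 and 12241 untreated and 12882 and 13058 treated. Treated libraries were just above the untreated ones, and the log2 changes of 0.04 (95% interval -0.02 to 0.10, adjusted p = 0.347) and 0.07 (95% interval 0.01 to 0.13, adjusted p = 0.0537) were not called in the authors' deposited table.

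TAP1 (ENSG00000168394.12, chr6:32845209-32853704) encodes a subunit of the transporter that carries peptides into the endoplasmic reticulum. It stood at 404 and 390.1 normalised reads with shNS and 1494 and 1289.7 with hairpin 1, the largest change among the 9 genes in any comparison. With hairpin 2 it stood at 618 and 644 against 394 and 382. Both hairpins were above the controls without overlap, hairpin 1 further than hairpin 2, with rises of 1.81 (95% interval 1.54 to 2.08, adjusted p = 2.43e-38) and 0.70 (95% interval 0.43 to 0.97, adjusted p = 2.42e-06) in the authors' deposited table. In U937 the untreated libraries held 498 and 444 and the 6 h libraries 322 and 285, so that both treated libraries were lower. TAP1 fell at 6 h, with -0.63 (95% interval -0.93 to -0.34, adjusted p = 0.000315) in the authors' deposited table. At 24 h the values were 525 and 467 untreated and 465 and 465 treated, the treated just under the lower control, with -0.09 (95% interval -0.31 to 0.12, adjusted p = 0.557) in the authors' deposited table.

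TAP2 (ENSG00000204267.17, chr6:32821831-32838739), the partner subunit, had few reads: 45 and 51 with shNS, 61 and 71 with hairpin 1 and 56 and 34 with hairpin 2. In U937 it had 12 and 11 reads untreated, 13 and 9 at 6 h and 11 and 4 at 24 h. No change was detectable at this depth. Hairpin 1 gave 0.42 (95% interval -0.37 to 1.21, adjusted p = 0.477), hairpin 2 -0.07 (95% interval -0.95 to 0.80, adjusted p = 0.932) and 24 h of ligand -1.07 (95% interval -2.67 to 0.53, adjusted p = 0.324) in the authors' deposited table, which lists -0.35 and no adjusted p at 6 h. Without the deeper 24 h library the value was -1.83 and without the shallower one -0.60. Of the 50-base stretches in its longest coding GENCODE 29 transcript, 35.8% also occur in transcripts of another gene, so reads there could be left uncounted or shared. TAP1 and TAP2 form one transporter, and only TAP1 was called in any comparison, a contrast between genes of very different depth that was not tested.

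The inducible proteasome subunits replace standard catalytic subunits (PSMB8 for PSMB5, PSMB9 for PSMB6 and PSMB10 for PSMB7) and change which peptides are cut. PSMB8 (ENSG00000204264.12, chr6:32840717-32844679) held 1529 and 1627 normalised reads with shNS and 1879 and 1563 with hairpin 1, and these groups overlapped. With hairpin 2 it held 1104 and 1036 against 1492 and 1595, both below the controls. It was not called with hairpin 1, at 0.13 (95% interval -0.11 to 0.36, adjusted p = 0.468), and fell with hairpin 2, at -0.53 (95% interval -0.72 to -0.33, adjusted p = 5.58e-07) in the authors' deposited table. In U937 PSMB8 went from 946 and 1036 untreated to 829.9 and 815 at 6 h, and from 997 and 1089 to 1244 and 1203 at 24 h. The treated libraries were below both controls at 6 h and above both at 24 h. It fell by 0.27 (95% interval -0.46 to -0.07, adjusted p = 0.0315) at 6 h and rose by 0.23 (95% interval 0.09 to 0.38, adjusted p = 0.00656) at 24 h in the authors' deposited table.

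PSMB9 (ENSG00000240065.8, chr6:32854192-32859851) held 224 and 296 normalised reads with shNS and 500.3 and 424 with hairpin 1, both treated libraries above. With hairpin 2 it held 297 and 218 against 219 and 290.1, and the groups overlapped fully. It rose with hairpin 1, at 0.83 (95% interval 0.45 to 1.21, adjusted p = 0.000117), and was not called with hairpin 2, at 0.02 (95% interval -0.41 to 0.45, adjusted p = 0.962) in the authors' deposited table. U937 cells held 138 and 147 untreated and 187 and 176 at 6 h, and, normalised with the 24 h libraries, 145 and 155 untreated and 185 and 181 treated. Treated libraries lay above the untreated ones at both times, with changes of 0.35 (95% interval -0.09 to 0.79, adjusted p = 0.288) and 0.28 (95% interval -0.08 to 0.65, adjusted p = 0.232) that were not called in the authors' deposited table.

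PSMB10 (ENSG00000205220.12, chr16:67934506-67936850) held 281 and 251 normalised reads with shNS, 337 and 273 with hairpin 1 and, in its own table, 284 and 251 with hairpin 2 against 275 and 246. The groups overlapped in both tables, and neither 0.20 (95% interval -0.20 to 0.59, adjusted p = 0.504) nor 0.04 (95% interval -0.33 to 0.41, adjusted p = 0.908) was called in the authors' deposited table. In U937 it held 48.6 and 67.2 untreated and 66.8 and 69.8 at 6 h, which overlapped. At 24 h the treated libraries stood at 102 and 123 against 51.3 and 70.7, both above the controls. Its change was 0.24 (95% interval -0.48 to 0.96, adjusted p = 0.717) at 6 h, not called, and it rose by 0.89 (95% interval 0.36 to 1.42, adjusted p = 0.00381) at 24 h in the authors' deposited table. Of its 50-base stretches, 38.9% also occur in transcripts of another gene, as do 12.1% of those of PSMB9 and none of those of PSMB8 or B2M.

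PSMB8-AS1, a long non-coding RNA gene, overlaps PSMB8 over 594 bases and TAP1 over 1292 bases in RefSeq, and whether the authors' counting used strand is not given in the sources used here. It had a mean of 2.00 and 1.74 normalised reads in the hairpin tables, and of 93.9 and 130.1 in the 6 h and 24 h tables. At 6 h, where TAP1 and PSMB8 fell, it also fell, by 0.91 on the log2 scale (adjusted p = 0.0125), and at 24 h it changed by 0.02 (adjusted p = 0.947) in the authors' deposited table. Its part in the TAP1 and PSMB8 values in U937 was not tested.

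The differences between comparisons were tested for each gene, with p-values adjusted over all genes tested in both tables. In at least 1 of the 4 pairs 7 of the 9 genes differed, where 47.3% of the genes tested in at least 1 pair and 69.4% of those tested in all 4 did (7 of 8 members there), so this count is no result about the set. Hairpin 2 gave lower changes than hairpin 1 for 3 of the 9 genes, where 27.4% of all genes differed: TAP1 by -1.11 (95% interval -1.49 to -0.73, adjusted p = 1.99e-07), PSMB8 by -0.65 (95% interval -0.96 to -0.35, adjusted p = 0.000207) and PSMB9 by -0.81 (95% interval -1.39 to -0.24, adjusted p = 0.0232) on the log2 scale. The hairpins did not differ beyond error for HLA-B, at -0.16 (95% interval -0.44 to 0.13, adjusted p = 0.51), or for HLA-E, at 0.08 (95% interval -0.21 to 0.38, adjusted p = 0.789). For B2M the difference of 0.14 (95% interval -0.75 to 1.02, adjusted p = 0.9) had a wide interval. TAP2, at -0.49 (95% interval -1.67 to 0.69, adjusted p = 0.659), and PSMB10, at -0.16 (95% interval -0.70 to 0.38, adjusted p = 0.782), gave no called difference. HLA-C, at -0.49 (95% interval -2.94 to 1.96, adjusted p = 0.866), had the widest interval of the 9. Whether the heavy and light chain genes differ in this from the transporter and proteasome genes was not tested. The standard errors treat the shared controls as separate and are therefore too large within a line.

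Between the times in U937, 3 of 8 genes had a higher change at 24 h than at 6 h, where 23.0% of all genes differed. HLA-E differed by 0.66 (95% interval 0.44 to 0.88, adjusted p = 9e-08), TAP1 by 0.54 (95% interval 0.17 to 0.91, adjusted p = 0.0221) and PSMB8 by 0.50 (95% interval 0.26 to 0.74, adjusted p = 0.0005). For TAP1 this is a low value at 6 h and a value near the control at 24 h, and for PSMB8 a value below the control at 6 h and above it at 24 h. PSMB10 was called at 24 h and not at 6 h, yet its difference of 0.65 (95% interval -0.25 to 1.54, adjusted p = 0.36) did not pass. B2M differed by 0.03 (95% interval -0.05 to 0.11, adjusted p = 0.736), the narrowest interval of the 8.

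Set against 24 h in U937, hairpin 1 gave higher changes for 3 of 9 genes (36.7% of all genes differed): HLA-B by 0.75 (95% interval 0.44 to 1.06, adjusted p = 1.25e-05), B2M by 1.27 (95% interval 0.65 to 1.90, adjusted p = 0.000367) and TAP1 by 1.90 (95% interval 1.56 to 2.25, adjusted p = 2.39e-25). Hairpin 2 differed from 24 h for 5 of 9 (45.8% of all genes). It was higher for HLA-B by 0.59 (95% interval 0.34 to 0.85, adjusted p = 2.69e-05), B2M by 1.41 (95% interval 0.78 to 2.04, adjusted p = 5.1e-05) and TAP1 by 0.79 (95% interval 0.44 to 1.14, adjusted p = 3.58e-05). It was lower for PSMB8 by -0.76 (95% interval -1.01 to -0.52, adjusted p = 6.56e-09) and PSMB10 by -0.85 (95% interval -1.50 to -0.20, adjusted p = 0.0246). HLA-E gave no called difference between the lines, at -0.11 (95% interval -0.38 to 0.17, adjusted p = 0.602) for hairpin 1 and -0.02 (95% interval -0.24 to 0.20, adjusted p = 0.899) for hairpin 2. The lines, the way IGF2BP3 was lowered, the time since and the labelled kind of RNA all change together in these comparisons and cannot be told apart.

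**Figure D3:**
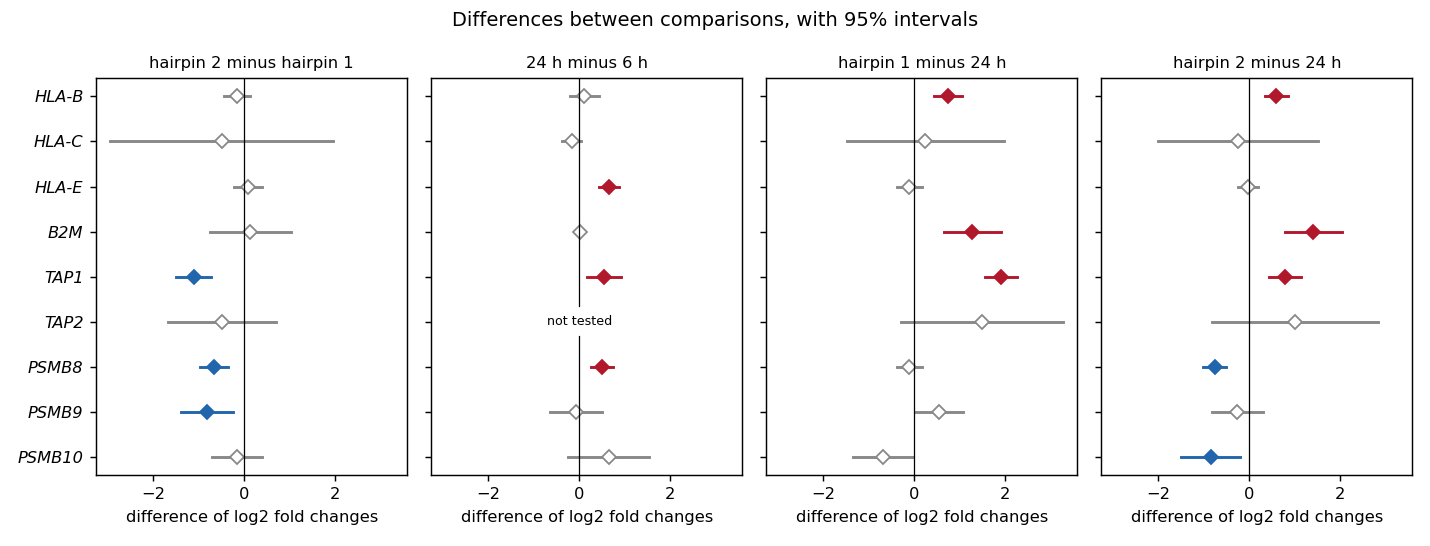
Differences between log2 fold changes (horizontal axis) for the 9 genes in the 4 pairs of comparisons, with 95% intervals. Filled points passed an adjusted p of 0.05 (red higher, blue lower) and open points did not. TAP1 is lower with hairpin 2 than with hairpin 1 (-1.11) and higher with either hairpin than at 24 h.

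Genes that act beside the 9 were read from 5 lists, which were not tested as sets. Among 15 genes of peptide loading and trimming, 7 rose and 2 fell with hairpin 1, and 6 rose and 4 fell with hairpin 2. At 6 h 1 rose and 6 fell, and at 24 h none rose and 10 fell. The median log2 fold change was 0.22, 0.01, -0.18 and -0.34 in that order. Of all tested genes, 17.7% rose and 16.0% fell with hairpin 1, and 19.4% rose and 22.1% fell with hairpin 2. At 6 h 10.9% rose and 12.3% fell, and at 24 h 18.9% rose and 19.9% fell. PDIA3, a disulfide isomerase of the loading complex, rose with hairpin 2 at 0.56 (adjusted p = 4.68e-17) and fell in U937, at -0.80 (adjusted p = 1.88e-108) after 6 h and -1.52 after 24 h in the authors' deposited table, where its last adjusted p is listed as 0. With hairpin 1 it stood at 0.16 (adjusted p = 0.17) in the authors' deposited table. HSPA5, the main chaperone of the endoplasmic reticulum, rose with both hairpins at 0.59 (adjusted p = 3.04e-12) and 0.50 (adjusted p = 2.25e-13) and fell in U937 at -0.74 (adjusted p = 1.47e-99) and -1.38 (adjusted p = 1.41e-299) in the authors' deposited table. TAPBPL, a peptide editor related to tapasin, rose at 0.67 (adjusted p = 0.00259) and 1.27 (adjusted p = 8.01e-14) with the hairpins and was not called in U937 in the authors' deposited table. Tapasin itself (TAPBP), outside the rule for named genes, fell with hairpin 2, at -0.87 (adjusted p = 8.9e-11) in the authors' deposited table. It was not called with hairpin 1, at 0.22 (adjusted p = 0.299), or in U937 in the authors' deposited table. THOP1, a peptidase that destroys peptides in the cytosol, fell at -0.53 (adjusted p = 7.9e-05) with hairpin 1, -1.54 (adjusted p = 1.34e-58) with hairpin 2 and -0.24 (adjusted p = 0.00123) at 24 h in the authors' deposited table.

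The 7 constitutive beta subunits of the proteasome were not called with hairpin 1, all fell with hairpin 2, 4 fell at 6 h, and 2 rose and 3 fell at 24 h. The median log2 fold change was 0.01, -0.55, -0.19 and -0.15. Of all tested genes, 33.7% were called with hairpin 1 and 22.1% fell with hairpin 2. At 6 h 12.3% fell, and at 24 h 18.9% rose and 19.9% fell. PSMB2 fell with hairpin 2 at -0.93 (adjusted p = 2.52e-26), at 6 h at -0.25 (adjusted p = 0.000624) and at 24 h at -0.57 (adjusted p = 1.11e-24) in the authors' deposited table. PSMB1 and PSMB3, which are also non-catalytic, fell with hairpin 2 at -0.59 (adjusted p = 2.45e-11) and -0.55 (adjusted p = 8.69e-07) in the authors' deposited table. The catalytic subunit PSMB7, the counterpart of PSMB10, fell with hairpin 2 at -0.64 (adjusted p = 1.85e-11) and rose at 24 h at 0.36 (adjusted p = 3.78e-06) in the authors' deposited table. The fall of PSMB8 with hairpin 2, at -0.53, thus stood beside falls of all 7 constitutive subunits, -0.93 to -0.39, and its counterpart PSMB5 stood at -0.39 (adjusted p = 0.00299) in the authors' deposited table.

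Of 9 proteasome activators and assembly factors, 1 rose and 2 fell with hairpin 1, 8 fell with hairpin 2, none was called at 6 h and 6 fell at 24 h, with medians of -0.05, -0.53, -0.10 and -0.38. Of all tested genes, 17.7% rose and 16.0% fell with hairpin 1 and 22.1% fell with hairpin 2. At 6 h 23.2% were called, and at 24 h 19.9% fell. PSME2, a subunit of the interferon-inducible activator, was the 1 that rose with hairpin 1, at 0.43 (adjusted p = 0.000231) in the authors' deposited table, and is named because the count is small. PSME2 fell with hairpin 2, at -0.25 (adjusted p = 0.0254), and at 24 h, at -0.44 (adjusted p = 4.24e-05) in the authors' deposited table. The assembly chaperone PSMG1 fell at -0.46 (adjusted p = 0.000989) with hairpin 1, -1.22 (adjusted p = 2.08e-22) with hairpin 2 and -0.42 (adjusted p = 1.55e-05) at 24 h in the authors' deposited table. PSMG3 fell at -0.96 (adjusted p = 7.07e-10) with hairpin 2 and -0.51 (adjusted p = 8.15e-05) at 24 h, and PSMG4 at -0.73 (adjusted p = 1.17e-06) and -0.71 (adjusted p = 1.2e-07) with the hairpins in the authors' deposited table. POMP, the maturation factor that immunoproteasome assembly needs, fell at -0.64 (adjusted p = 6.28e-16) with hairpin 2 and -0.41 (adjusted p = 0.00175) at 24 h in the authors' deposited table.

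Of 29 regulators of class I genes, 13 rose and 4 fell with hairpin 1, and 13 rose and 10 fell with hairpin 2. In U937, 5 rose and 4 fell of 27 tested at 6 h, and 8 rose and 2 fell of 28 at 24 h. The medians were 0.28, 0.11, 0.06 and 0.04. Of all tested genes, 17.7% rose and 16.0% fell with hairpin 1, and 19.4% rose and 22.1% fell with hairpin 2. At 6 h 10.9% rose and 12.3% fell, and at 24 h 18.9% rose and 19.9% fell. The interferon gamma receptor chains rose with both hairpins: IFNGR1 at 0.73 (adjusted p = 5.55e-11) and 2.11 (adjusted p = 1.38e-150), and IFNGR2 at 0.81 (adjusted p = 3.37e-10) and 1.72 (adjusted p = 1.6e-69) in the authors' deposited table. In U937 IFNGR1 rose at 24 h, at 0.39 (adjusted p = 0.000283), and IFNGR2 fell at 6 h, at -0.64 (adjusted p = 0.00144) in the authors' deposited table. IRF9, the DNA-binding part of the type I interferon complex of STAT and IRF proteins, rose at 1.64 (adjusted p = 7.64e-09) with hairpin 1 and 1.52 (adjusted p = 4.72e-08) with hairpin 2 and was not tested in U937, where its mean was 4.47 and 5.96 normalised reads in the authors' deposited table. EZH2, the methyltransferase of Polycomb repressive complex 2, fell in all 4 comparisons, at -0.90 (adjusted p = 6.08e-17), -1.90 (adjusted p = 1.23e-75), -0.46 (adjusted p = 1.37e-08) and -0.54 (adjusted p = 1.5e-16) in the authors' deposited table. Outside the rule for named genes, the transactivator NLRC5 was chosen after its values were seen. NLRC5 rose with hairpin 2, at 0.71 (adjusted p = 1.3e-19), and was not called with hairpin 1, at 0.19 (adjusted p = 0.168) in the authors' deposited table.

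Of 10 listed class I-like and NK ligand genes, 5 rose and 1 fell with hairpin 1, and 7 rose and 1 fell with hairpin 2. In U937, 1 fell and none rose of 6 tested at 6 h, and 1 rose and 1 fell of 8 at 24 h. Medians were 0.72, 1.04, -0.17 and -0.81. Of all tested genes, 17.7% rose and 16.0% fell with hairpin 1, and 19.4% rose and 22.1% fell with hairpin 2. At 6 h 10.9% rose and 12.3% fell, and at 24 h 18.9% rose and 19.9% fell. ULBP1, a stress ligand of the activating NK receptor NKG2D, was the 1 that fell each time, at -2.29 (adjusted p = 2.25e-10), -2.08 (adjusted p = 1.53e-09), -1.94 (adjusted p = 6.89e-06) and -2.06 (adjusted p = 1.72e-09) in the authors' deposited table. FCGRT, the neonatal Fc receptor chain that pairs with beta-2-microglobulin, rose at 0.83 (adjusted p = 1.88e-09) and 1.96 (adjusted p = 4.59e-104) with the hairpins in the authors' deposited table. CD1D, which presents lipids and also pairs with it, rose at 1.70 (adjusted p = 6.27e-30) and 1.20 (adjusted p = 1.47e-15) in the authors' deposited table. HLA-F rose at 4.45 (adjusted p = 9.38e-07) with hairpin 1 and 2.75 (adjusted p = 0.0297) with hairpin 2 from means of 28.8 and 9.50 normalised reads in the authors' deposited table, so its size is poorly set. MR1, named because it was the 1 that rose at 24 h, did so at 0.99 (adjusted p = 2.04e-20) and rose with both hairpins, at 0.85 (adjusted p = 2.09e-14) and 1.58 (adjusted p = 1.41e-76) in the authors' deposited table.

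**Figure D4:**
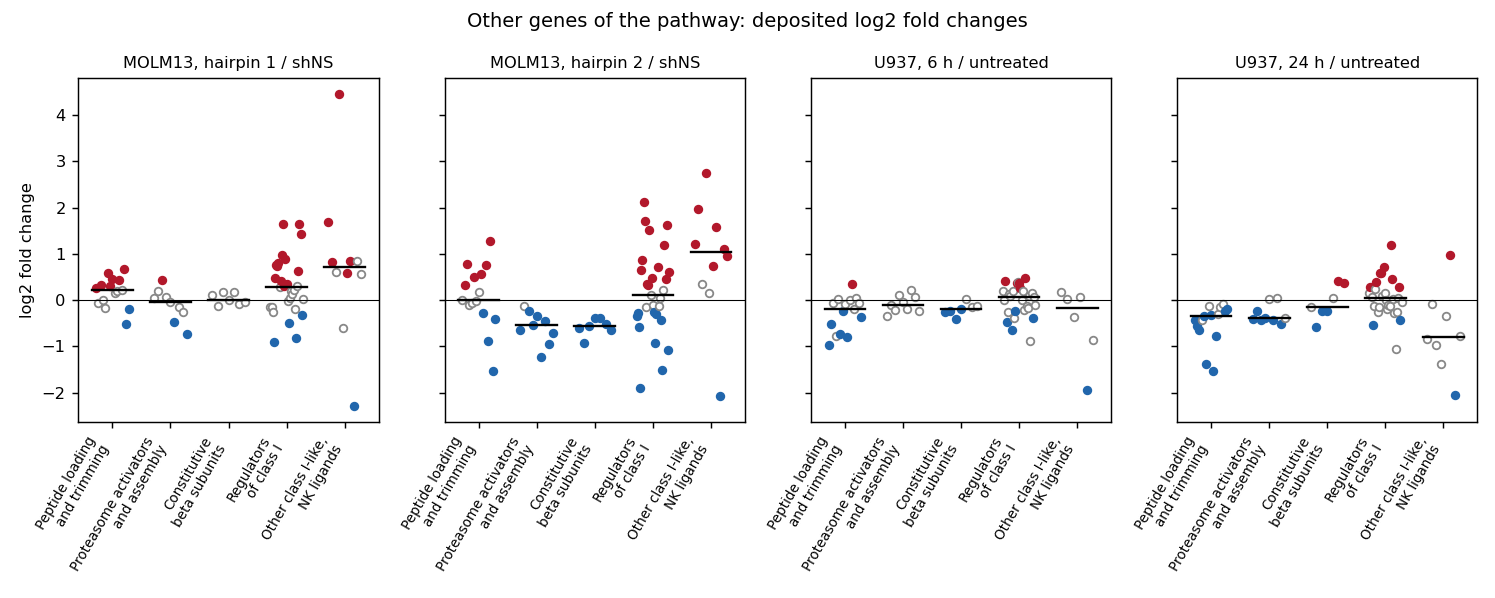
Log2 fold changes as deposited (vertical axis) of the tested genes of 5 lists in the 4 comparisons, each point 1 gene, with black lines at list medians. Red rose, blue fell and open grey points were not called. With hairpin 2 all 7 constitutive beta subunits lie below 0, and at 24 h all 15 loading and trimming genes do, 10 of them called. Of all tested genes, 22.1% fell with hairpin 2 and 19.9% at 24 h.

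Among 9742 other genes with a mean of at least 50 normalised reads in all 4 tables, PNPLA6, RGCC, ALG2, KCTD5 and AAGAB lay closest to the median profile of the 9 genes, at Euclidean distances of 0.14, 0.15, 0.17, 0.17 and 0.20 over the 4 log2 fold changes. That profile, which takes in the untested 6 h value of TAP2, describes few of the members. PSMB9 was the closest to it, at 0.31, with 32 of the other genes closer, and for the other 7 members placed between 2425 (HLA-C) and 7365 (B2M, the farthest at 1.54) of the other genes were closer. TAP2, with a mean under 50 in 3 of the 4 tables, was not placed. The 4 values share control libraries within each line.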

How the data were processed

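RNA was sequenced in 12 libraries (6 groups of 2). Per the submitters' processing notes, reads were handled with cutadapt 4.1, HISAT2 2.1.1, HTSeq 2.0.2 and DESeq2 on hg38, and the annotation release is not given in the sources used here. Per the file headers, each deposited table gives a signal (the DESeq2 mean, over 4 libraries, of counts scaled by size factors). It also gives the authors' log2 fold change, treated over control. The p-value is the one the authors adjusted over tested genes, and genes without one were not tested.

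A gene was called at an adjusted p under 0.05. Unadjusted p-values came from undoing the Benjamini-Hochberg step, and standard errors and 95% intervals assume a normal (Wald) test. For differences between comparisons, variances were added, and the two-sided normal p was adjusted over all genes tested in both tables. The deposited mean is a sum of whole reads with a fixed weight per library. The weights were read from genes with 2 reads in a single library, and the reads that fit the mean, the fold change and the same controls in both tables of a line were searched. Of 150 random genes per line, 150 had exactly 1 solution in each. These had means under 1000, so members with higher means and TAP2 in U937 lay outside their range. B2M had 295 and 313 solutions in the MOLM13 tables and 310 and 344 in the U937 tables. Only 1 per line fitted both, and its search took the libraries of a group to lie within 2-fold. Ratios of recovered group means lay within 0.02 of the deposited log2 values. The search was bounded by those values, so this closeness is no separate check. The edgeR and limma tests listed for tables with values per library were not run, because the tables hold none. The scripts were tested on simulated data. Named genes were all 9 members, IGF2BP3, up to 4 called genes per list with the largest change, and the 5 genes nearest to the members' medians. The members and lists were chosen with earlier results of these data known. Alternatives were a threshold of 0.01, a 2-fold minimum, centring, adjustment over genes with a mean of at least 50, and leaving out libraries. Python 3.11.15, numpy 2.4.6, pandas 2.3.3, scipy 1.17.1, Biopython 1.88 and matplotlib 3.10.9 were used. RefSeq GRCh38.p14 gave coordinates and promoters, and GENCODE 29 gave transcript lengths and shared 50-base stretches.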

Additional observations from a re-analysis of the deposited data

Results flagged for a closer look

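Differences for 7 of the 9 genes between comparisons passed an adjusted p of 0.05 over all genes and were picked out for that reason, by a test of the difference itself. Of the genes tested in all 4 differences, 69.4% passed at least 1 of them, against 7 of the 8 members so tested (TAP2 had no test at 6 h), so the count is no result about the set, and a single test called 3 to 5 members. With hairpin 2 minus hairpin 1 the log2 difference was -1.11 for TAP1, -0.65 for PSMB8 and -0.81 for PSMB9. With 24 h minus 6 h in U937 it was 0.66 for HLA-E, 0.54 for TAP1 and 0.50 for PSMB8. Between lines, hairpin 1 minus 24 h gave 0.75 for HLA-B, 1.27 for B2M and 1.90 for TAP1. Hairpin 2 minus 24 h gave 0.59 for HLA-B, 1.41 for B2M, 0.79 for TAP1, -0.76 for PSMB8 and -0.85 for PSMB10. The B2M differences rest on shNS libraries that differ 1.56-fold, and without either of them the B2M change with a hairpin stayed between 1.06 and 1.84, above the 0.07 at 24 h. PSMB8-AS1, which overlaps TAP1 and PSMB8, had a mean of 93.9 normalised reads in the 6 h table, and its part in the differences between times was not tested.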

How the results depend on the processing

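The counts of called genes held within 1.5 times at an adjusted p under 0.01 (5 with hairpin 1, 5 with hairpin 2, 2 at 6 h, 4 at 24 h), after centring on the median gene, and with only genes of a mean of at least 50 adjusted, where B2M joined at 24 h for a count of 5. Asking for at least 2-fold as well left 3 with hairpin 1 (HLA-B, B2M and TAP1), 1 with hairpin 2 (B2M) and 0 at either time in U937. The shares of all genes called at these settings were not worked out, so these counts are no result about the set. At 0.01, PSMB8 at 6 h (-0.27), PSMB9 between hairpins (-0.81), TAP1 between times (0.54) and PSMB10 between hairpin 2 and 24 h (-0.85) were no longer called. Centring shifted the comparisons by at most 0.06, and removing the shared controls from the standard error left 3 and 3 differences within the lines. Leaving out a library, chosen after seeing the data and with no p recomputed, cannot turn the 17 called changes, whose groups do not overlap. It turned the sign of 6 of the 18 changes not called: HLA-C and PSMB8 with hairpin 1 (-0.54 to 1.37 and -0.01 to 0.25), and HLA-C, PSMB9, PSMB10 and TAP2 with hairpin 2 (-1.03 to 0.88, -0.22 to 0.24, -0.05 to 0.13 and -0.47 to 0.24). The share of all genes whose groups do not overlap was not worked out. No paired analysis was possible because the recovered libraries carry no replicate number. The few reads of TAP2 (4 to 71) limit what could be detected for it.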
